A study of Macaca mulatta with 19 samples.

Results

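The VEGF and angiopoietin system is described here through 10 genes. They are the ligands VEGFA, VEGFB, VEGFC and PGF, the angiopoietins ANGPT1 and ANGPT2, the receptor FLT1, the co-receptors NRP1 and NRP2, and the inhibitor THBS1. The genes were chosen by symbol, as angiogenic factors of the follicle that becomes a corpus luteum. Each symbol matched 1 row of the count table, so the members are 10 of 32386 genes. RNA of luteinized granulosa cells from rhesus macaques (Macaca mulatta) was sequenced in 19 libraries, which were polyA-selected and carry no strand information. The cells came from aspirates of the periovulatory follicle that each animal had selected by itself in a controlled ovulation cycle, and the labels name no step that separated granulosa cells from other cells of the aspirate. The study asks what long exposure to testosterone, to a Western-style diet or to their combination does to a follicle's granulosa cells and its oocyte.

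Chow+C, the control (n = 4), combined chow with a cholesterol implant, and Chow+T (n = 4) combined chow with a testosterone implant. WSD+C (n = 5) combined the Western-style diet with cholesterol, and WSD+T (n = 6) combined that diet with testosterone. Every group carried an implant, so a difference from control is a difference from cholesterol, not from no implant. The testosterone implants were meant to raise the hormone 4 to 5 fold above the cholesterol animals. Treatment began around menarche and lasted about 3.5 years, and 10 animals were enrolled per treatment. The labels also class the oocyte that came with the cells. Of the libraries, 8 had an MI (metaphase I) oocyte, 4 an MII (metaphase II) oocyte, 6 a degenerating oocyte and 1 a GV (germinal vesicle) oocyte. Degenerating oocytes came with 3 WSD+T, 2 WSD+C and 1 Chow+T library and with no Chow+C library, so diet and oocyte class are not independent. Libraries are written as group and number, so that Chow+C 2 is the second control library. No label states outright that each library is a separate animal, so p-values measure the spread between these libraries.

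VEGFA is made by granulosa cells around ovulation and drives the growth of capillaries into the granulosa layer, which has no vessels before the follicle ruptures. VEGF ligands signal through the receptor tyrosine kinases FLT1, KDR and FLT4, with NRP1 and NRP2 as co-receptors that also bind semaphorins. ANGPT1 activates the endothelial receptor TEK and steadies vessels, ANGPT2 mostly counters it where vessels sprout or regress, and the matrix protein THBS1 blocks the growth of new vessels.

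Gene counts per library ranged from 28832132 to 56385679. FLT1 had few reads in every library, and NRP2 had 3 reads in WSD+T 2 and 10 to 18 in 5 others, so that its low values are imprecise. Values are CPM (gene counts scaled to a common library total, here after TMM scaling), which are not divided by transcript length, so levels are compared between libraries and not between genes. In bulk RNA, fewer cells of a type and less RNA per cell cannot be told apart. Summed CPM of 10 granulosa markers found in the table lay between 7803 and 14965 in 17 libraries, at 5073 in Chow+T 2, and at 943 in WSD+C 4. The libraries WSD+C 4 and WSD+T 6 stood apart in leukocyte markers, whose summed CPM was 2163 and 1664 there and 7.40 to 194 in the other 17. WSD+C 4 also held 101807 CPM of erythroid markers and 2666 CPM of pericyte and smooth muscle markers. Many results that rest on these 2 libraries are given with and without them, but not all. The medians of marker lists and the fitted group differences of NRP1 and ANGPT2 are given only with them. So is the VEGFA slope on the hypoxia score.

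**Figure D1:**
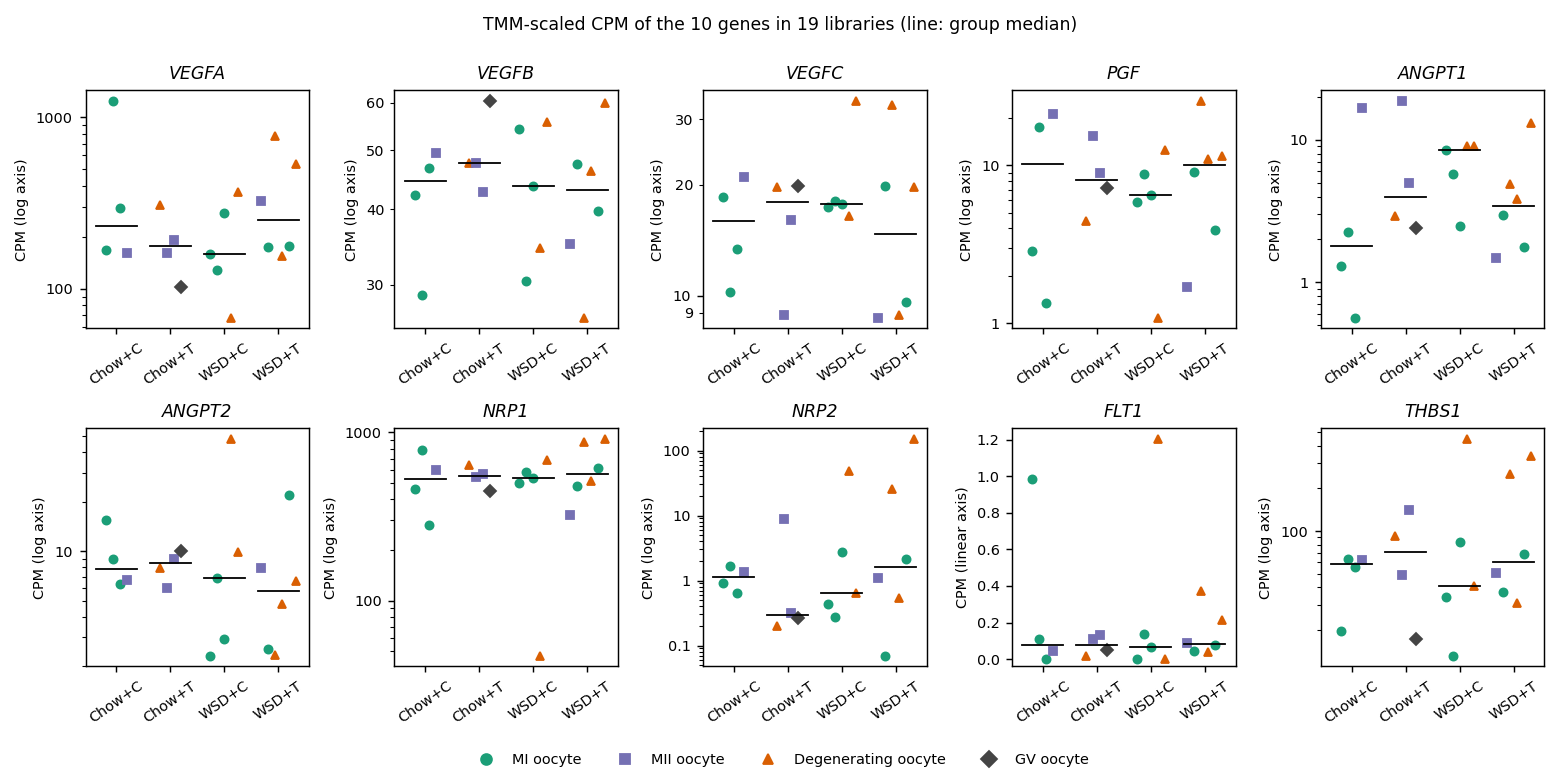
Level of each of the 10 genes in 19 libraries, as TMM-scaled CPM on a log axis (linear for FLT1, which has libraries at 0), by treatment group on the x axis, with 1 point per library, symbols for the oocyte class and a line at the group median. VEGFB stays within 26.5 to 60.4 CPM, whereas NRP2 runs from 0.070 to 150.5 CPM, with its 3 highest libraries all from degenerating oocytes of the Western-style diet groups.

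VEGFA, the main VEGF of the ovulating follicle, was read in every library. Its CPM in Chow+C 1 to 4 was 169, 1246, 295 and 162. In Chow+T 1 to 4 it was 307, 163, 193 and 102. WSD+C 1 to 5 had 160, 129, 275, 68.0 and 367, and WSD+T ranged from 155 to 775 with a median of 250.7. The 4 groups overlapped, and Chow+C 2 alone stood far above the rest of its group. By group medians the order was WSD+T, Chow+C (232), Chow+T (178) and WSD+C (160), and no neighbours in it were separated beyond their spread. The mean was 468 ± 522 (SD, n = 4) in Chow+C and 191 ± 85.9 (n = 4) in Chow+T, so the control group varied more than it differed from the treated one.

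In edgeR's quasi-likelihood test, none of the 9 members that passed the low-count filter was called in any of the 8 treatment comparisons, adjusted over all 15019 genes. The background was the same, with 0% of genes called for testosterone on chow, for diet without testosterone, for testosterone plus diet against control, for testosterone on Western-style diet, for diet under testosterone, for both main effects and for the testosterone by diet interaction. At an unadjusted p under 0.05, 579 to 1079 genes (3.86% to 7.18%) stood in these comparisons, and the largest count by DESeq2 was 6 genes. Among the values of 9 members in 8 comparisons, 3 had an unadjusted p under 0.05, a share within that range of all genes. They were the interaction of VEGFA, the diet main effect of NRP2, and NRP2 under testosterone plus diet against control.

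For VEGFA, the fitted log2 difference of Chow+T from Chow+C was -1.29 (SE 0.69), and that of WSD+C from Chow+C was -1.23 (SE 0.65). On the Western-style diet, testosterone gave 0.84 (SE 0.59) on the same scale. The interaction, the difference between the testosterone effects on the 2 diets, was therefore 2.13 (SE 0.91, unadjusted p = 0.032, adjusted p = 0.93 by edgeR). It rested on the 2 libraries highest in VEGFA. Without Chow+C 2 it was 0.97, and without both Chow+C 2 and WSD+T 3 it was 0.59. Without Chow+C 2 the effect of testosterone on chow was -0.13 and that of diet without testosterone was -0.06. Over all 29 alternatives the adjusted p of the interaction ran from 0.585 to 1. In Chow+C 2, 49.1% of reads fell in genes, the lowest share of the 19 libraries, and the part of this in its VEGFA level was not tested.

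VEGFB, a ligand of FLT1, was the steadiest member. Its CPM was 28.9 to 49.5 in Chow+C, 42.6 to 60.4 in Chow+T, 30.4 to 55.8 in WSD+C and 26.5 to 59.97 in WSD+T. The range over all libraries was 2.28-fold, and the SD within groups was 0.36 on the log2 scale, against a median of 0.55 over all genes tested. The 95% confidence intervals of its log2 differences were narrow, for example -0.27 to 0.76 for testosterone on chow and -0.42 to 0.26 for the diet main effect.

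VEGFC, the ligand of FLT4 that is known for the growth of lymphatic vessels, had 18.5, 10.2, 13.4 and 20.9 CPM in Chow+C 1 to 4 and 19.7, 8.89, 16.1 and 19.8 in Chow+T 1 to 4. In WSD+C, 4 libraries lay between 16.4 and 18.1 and WSD+C 5 stood apart at 33.7. WSD+T ran from 8.74 to 32.9 with a median of 14.7. The groups overlapped, and the 95% intervals of the VEGFC log2 differences between pairs of treatment groups all lay within -1.05 to 1.21.

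PGF, placental growth factor, binds FLT1 and not KDR. It varied more between libraries of a group than between groups. Chow+C 1 to 4 had 2.88, 17.6, 1.34 and 21.2 CPM, and Chow+T 1 to 4 had 4.47, 15.3, 8.89 and 7.19. In WSD+C the lowest value was 1.08 (library 4) and the highest 12.6 (library 5), and in WSD+T values lay between 1.71 and 25.6 with a median of 10.1. Treatment groups held 3.41% of the variance of PGF in log2 CPM and oocyte classes 4.31%, against medians of 13.3% and 15.8% over all genes tested.

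**Figure D2:**
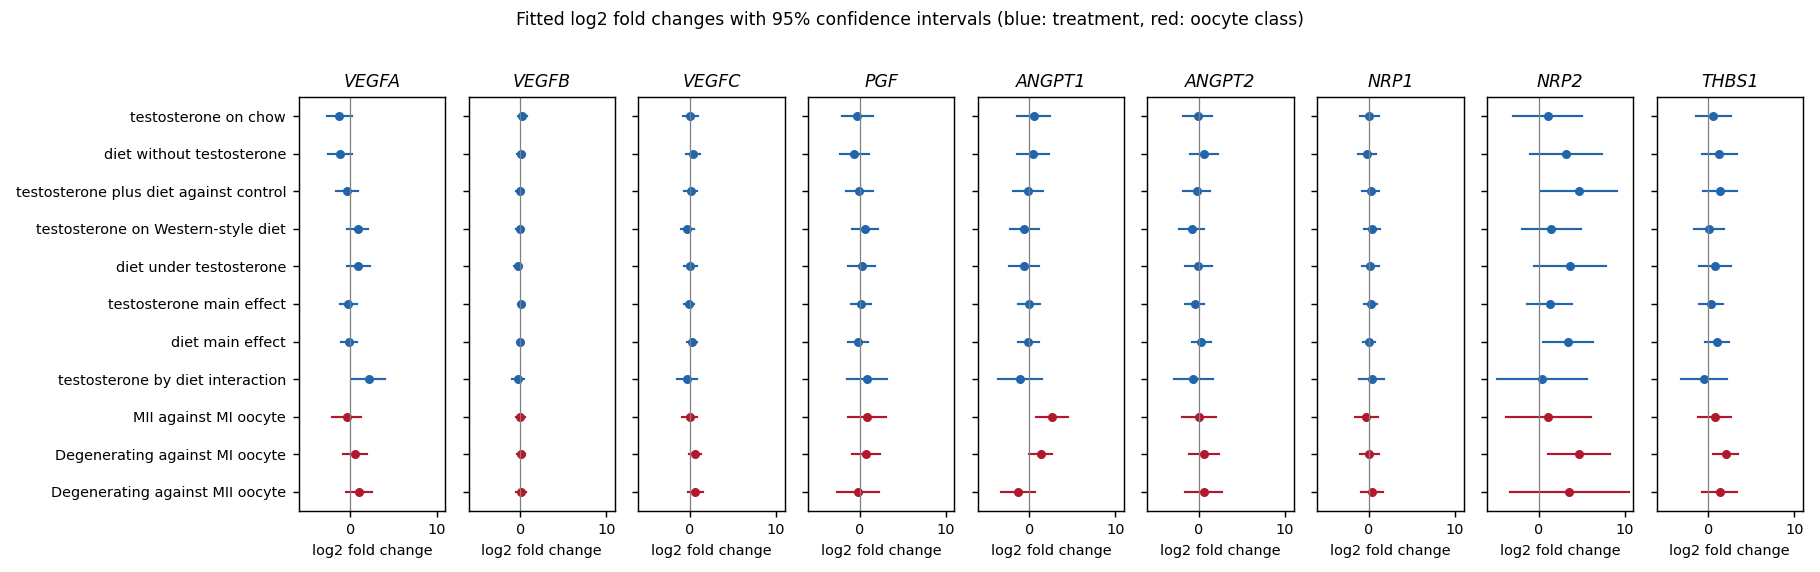
Fitted log2 fold changes (points) with 95% confidence intervals (lines) of the 9 genes that passed the low-count filter, on a common x axis, in 8 treatment comparisons (blue) and 3 comparisons of oocyte classes (red). The intervals of VEGFB are the narrowest and those of NRP2 the widest, and the largest fitted values are 4.72 and 4.71, both of NRP2.

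ANGPT1 was low in most libraries and high in a few. Chow+C 1 to 4 had 1.31, 2.27, 0.57 and 16.6 CPM, and Chow+T 1 to 4 had 2.90, 18.8, 5.01 and 2.40. WSD+C 1 to 5 had 8.47, 5.81, 2.48, 9.03 and 9.01, and WSD+T ran from 1.48 to 13.0 with a median of 3.43. The 2 highest libraries, Chow+C 4 and Chow+T 2, both came with an MII oocyte, and the 2 lowest, Chow+C 3 and Chow+C 1, with an MI oocyte. The other 2 libraries with an MII oocyte, Chow+T 3 at 5.01 and WSD+T 1 at 1.48 CPM, fell among the MI libraries, which ran from 0.57 to 8.47.

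The oocyte classes were compared over 18 libraries with the treatment group as a term, leaving out the GV library, which has no replicate. MII oocytes came with 2 Chow+T, 1 Chow+C and 1 WSD+T library. MI oocytes came with 3 Chow+C, 3 WSD+C and 2 WSD+T libraries. MI and MII thus met within a group only in Chow+C and WSD+T, with 1 MII library each. No member was called, and 0% of 14976 genes were called for MII against MI, for degenerating against MI and for degenerating against MII. At an unadjusted p under 0.05 stood 586, 2136 and 506 genes, while DESeq2 called 9, 1001 and 27. ANGPT1 was higher with MII than with MI oocytes by a fitted 2.61 on the log2 scale (SE 0.86, unadjusted p = 0.0084, adjusted p = 1 by edgeR). Without Chow+C 4 the value was 0.89, and within the Western-style diet libraries alone it was -1.004, with 1 MII library there. The adjusted p of this difference was 0.34 to 1 over 26 alternatives.

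ANGPT2 had 15.4, 8.97, 6.33 and 6.67 CPM in Chow+C 1 to 4, and 7.94, 6.0, 8.97 and 10.1 in Chow+T 1 to 4. WSD+C 1 to 5 had 2.32, 6.83, 2.91, 48.2 and 9.87, and WSD+T ran from 2.33 to 22.1 with a median of 5.71. The library highest in ANGPT2, WSD+C 4, was also the library highest in leukocyte, erythroid and smooth muscle markers. The groups overlapped, and the fitted log2 difference of WSD+C from Chow+C was 0.59 (SE 0.78).

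Since the angiopoietins compete for TEK, their reads were also set against each other within a library. The number of ANGPT2 reads per ANGPT1 read was lowest in WSD+C 1 (0.274) and highest in WSD+T 5 (12.6). It was over 10 in 3 libraries, Chow+C 1, Chow+C 3 and WSD+T 5, which all had an MI oocyte. It was under 1 in 6 libraries, of which WSD+C 1 and WSD+T 2 had an MI oocyte, Chow+C 4 and Chow+T 2 an MII oocyte, and WSD+T 3 and WSD+T 6 a degenerating one. Every one of the 3 classes thus lay on both sides. Since reads are not divided by length, a ratio of 1 does not mark equal numbers of transcripts.

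**Figure D3:**
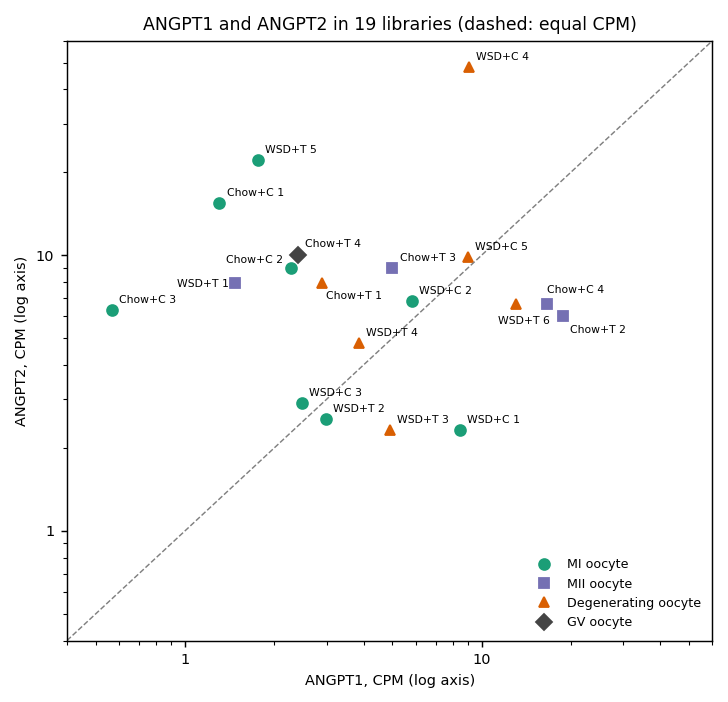
ANGPT2 against ANGPT1 in 19 libraries, both as TMM-scaled CPM on log axes, with symbols for the oocyte class and a dashed line at equal CPM. Chow+C 4 and Chow+T 2 lie farthest to the right at 16.6 and 18.8 CPM of ANGPT1, and WSD+C 4 lies highest at 48.2 CPM of ANGPT2.

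FLT1, the receptor of VEGFA, VEGFB and PGF, was close to absent. Only 151 FLT1 reads were counted over the 19 libraries, 3 libraries reached 10 reads, and the gene did not pass the low-count filter. WSD+C 4 had 51 reads (1.203 CPM), Chow+C 1 had 37 (0.99 CPM) and WSD+T 3 had 19 (0.37 CPM). Chow+C 3, WSD+C 1 and WSD+C 5 had none, which allows up to 0.077, 0.073 and 0.074 CPM there at a limit of 3 reads. Tested without the filter, FLT1 passed in none of the 11 comparisons, with adjusted p-values of 0.57 to 1 by edgeR.

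NRP1, a co-receptor for VEGFA, was read at 282 to 786 CPM in Chow+C, 449 to 640 in Chow+T and 321 to 915 in WSD+T. In WSD+C, 4 libraries lay between 503 and 683 CPM and WSD+C 4 stood at 47.1. That library was also lowest in granulosa markers, and the part of its cell makeup in the NRP1 level was not tested. The largest of the log2 differences of NRP1 between pairs of groups was 0.40 (SE 0.45), for testosterone on the Western-style diet.

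NRP2, a co-receptor for VEGFC and for class 3 semaphorins, was at or under 2.72 CPM in all libraries but 4. Chow+C 1 to 4 had 0.91, 1.67, 0.64 and 1.36 CPM, and Chow+T 1 to 4 had 0.20, 8.87, 0.31 and 0.27. WSD+C 1 to 5 had 0.44, 0.27, 2.72, 49.0 and 0.65, and WSD+T ran from 0.070 to 150.5 with a median of 1.64. The groups overlapped at their low ends, and the 3 libraries above 10 CPM were WSD+T 6, WSD+C 4 and WSD+T 3 at 25.8. Its SD within groups, 2.95 on the log2 scale, exceeded that of 99.5% of genes tested.

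For NRP2 the fitted diet main effect was 3.43 on the log2 scale (SE 1.40, unadjusted p = 0.026, adjusted p = 0.70 by edgeR), and WSD+T exceeded Chow+C by 4.71 (SE 2.11, unadjusted p = 0.039, adjusted p = 0.72). The diet main effect was 1.74 when WSD+C 4 was left out. With WSD+T 6 left out as well it was 0.57, and the difference of WSD+T from Chow+C was 2.38. Among the libraries with MI or MII oocytes alone these values were -1.03 and -0.043. When the leukocyte marker score, defined further on, was a covariate they were 0.37 and 0.28. Markers of other cells moved with both comparisons, although none was called. For the diet main effect, all 10 leukocyte markers tested were fitted higher with an unadjusted p under 0.05 (median 3.30 on the log2 scale), as were 11 of 13 macrophage markers (list median 3.12). The erythroid and smooth muscle lists had medians of 2.78 and 1.78 there. For WSD+T against Chow+C, 12 of 13 macrophage markers had an unadjusted p under 0.05 (list median 5.38), and 1 of 10 leukocyte markers did (list median 2.74). The part of these cells in the NRP2 values was not tested beyond the covariate. The adjusted p of both stayed between 0.348 and 1 over 29 alternatives each.

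THBS1 had 19.6, 63.5, 55.5 and 62.3 CPM in Chow+C 1 to 4, and 92.2, 49.1, 140.0 and 17.2 in Chow+T 1 to 4. WSD+C 1 to 5 had 33.9, 13.2, 84.0, 447 and 41.1, and WSD+T ran from 30.9 to 336.5 with a median of 60.03. The treatment groups overlapped. The 3 highest libraries were WSD+C 4, WSD+T 6 and WSD+T 3 at 251, the same 3 that were highest in NRP2.

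By oocyte class, THBS1 was 13.2 to 84.0 CPM (median 46.3) over 8 libraries with an MI oocyte, 49.1 to 140.0 (median 56.6) over 4 with an MII oocyte, and 30.9 to 447 (median 171.7) over 6 with a degenerating oocyte. The classes overlapped, although 4 of the 6 degenerating libraries exceeded every MI library. The fitted log2 difference of degenerating from MI was 2.04 (SE 0.69, unadjusted p = 0.0096, adjusted p = 0.205 by edgeR), and 0.034 adjusted by DESeq2. For NRP2 the same difference was 4.72 (SE 1.69, unadjusted p = 0.014, adjusted p = 0.234 by edgeR, 0.0029 by DESeq2). Without the treatment group as a term, the adjusted p by edgeR was 0.042 for THBS1 and 0.030 for NRP2. All 9 members were fitted higher with degenerating than with MI oocytes, with a median of 0.61 against 0.02 over all genes. This fit includes WSD+C 4 and WSD+T 6, which both had a degenerating oocyte. The share of all genes fitted higher was not computed. Of the 9, only THBS1 and NRP2 had an unadjusted p under 0.05, against 14.3% of all genes, of which 1470 were higher and 666 lower.

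Markers of several other cell types moved with this difference. All 10 leukocyte and all 13 macrophage markers tested were fitted higher with degenerating than with MI oocytes, with medians of 5.44 and 4.73 on the log2 scale, and each had an unadjusted p under 0.05 but none was called. Of the other lists, 4 of 4 platelet markers (median 1.66, 3 with an unadjusted p under 0.05) and 7 of 7 erythroid markers (median 3.87, 4 with an unadjusted p under 0.05) were fitted higher. So were 5 of 6 endothelium markers (median 1.78, 2 with such a p) and 8 of 10 pericyte and smooth muscle markers (median 1.18, 3 with such a p). Theca and stroma markers had a median of 0.38, with 5 of 7 higher, and granulosa markers had a median of -0.51, with 1 of 10 higher. Platelets store THBS1 protein. Their summed markers had a median of 3.35 CPM (1.22 to 10.8) with degenerating and 0.97 CPM (0.63 to 4.35) with MI oocytes. The summed leukocyte markers had a median of 122 CPM (8.89 to 2163) with degenerating oocytes and 16.1 CPM (7.40 to 60.3) with MI oocytes. Fitted together with the leukocyte score, the difference was -0.020 for THBS1 and -2.08 for NRP2. When WSD+C 4 and WSD+T 6 were left out it was 0.79 and 1.64. The part of these cells in the difference was not tested beyond these values. The adjusted p over 26 alternatives was 0.034 to 1 for THBS1 and 0.0029 to 1 for NRP2.

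To give how each member moved with other cells of the aspirate, its log2 change per unit of a marker score was fitted with the treatment group as a term. A score is the mean log2 CPM of the markers that passed the filter, so 1 unit is a doubling of the markers on average. On the leukocyte score, 2 of 9 members passed, against 18.1% of all genes tested. NRP2 rose by 1.03 per unit (SE 0.156, adjusted p = 1.47e-04 by edgeR) and THBS1 by 0.42 (SE 0.094, adjusted p = 0.0055). VEGFA, VEGFB and NRP1 had slopes of -0.0023, 0.01 and -0.06, with 95% intervals of -0.27 to 0.26, -0.07 to 0.09 and -0.27 to 0.15. ANGPT1 at 0.33 (adjusted p = 0.074) and ANGPT2 at 0.24 (adjusted p = 0.126) did not pass. The ANGPT1 slope was 0.52 without WSD+C 4 (adjusted p = 0.069) and 0.56 without WSD+C 4 and WSD+T 6 (adjusted p = 0.54). It passed in 3 of 25 alternatives, with a lowest adjusted p of 0.018 by DESeq2.

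The NRP2 slope was 1.19 without WSD+C 4, 0.93 without WSD+T 6 and 1.13 without both, with adjusted p-values of 0.0027, 0.0018 and 0.108 by edgeR. The THBS1 slope was 0.35 without WSD+C 4 (adjusted p = 0.231) and 0.28 without both libraries (adjusted p = 1). The ANGPT2 slope was -0.042 without WSD+C 4. Over 25 alternatives the adjusted p ran up to 0.108 for the NRP2 slope and to 1 for that of THBS1.

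**Figure D4:**
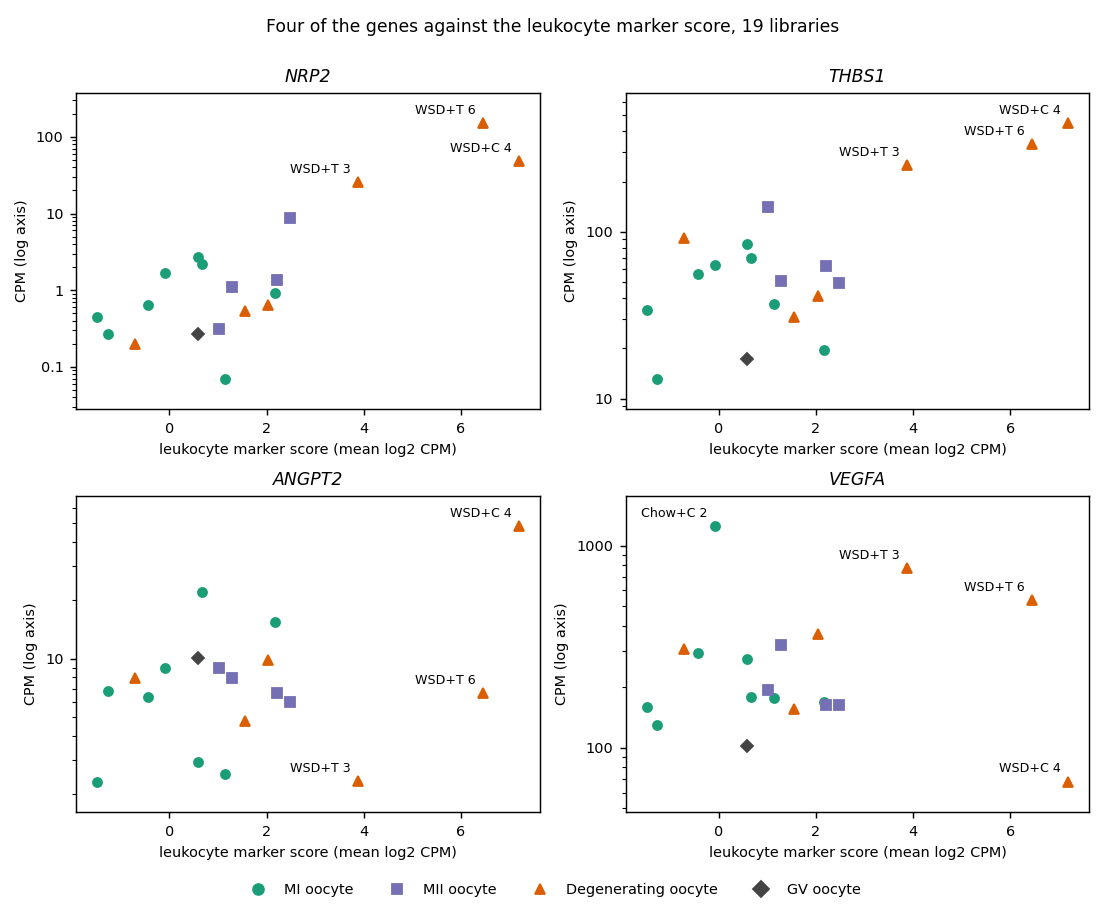
NRP2, THBS1, ANGPT2 and VEGFA as TMM-scaled CPM on a log axis against the leukocyte marker score (mean log2 CPM), with 1 point per library and symbols for the oocyte class. WSD+C 4 and WSD+T 6 lie at scores of 7.19 and 6.45 and WSD+T 3 at 3.87, and the other 16 lie under 2.5. NRP2 and THBS1 are highest in these 3 libraries, while VEGFA is lowest in WSD+C 4.

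On the endothelium score the same 2 members passed, against 21.7% of all genes. NRP2 rose by 2.42 per unit (SE 0.433, adjusted p = 8.0e-04 by edgeR) and THBS1 by 1.12 (SE 0.198, adjusted p = 7.5e-04). ANGPT2, which endothelial cells store and release, had a slope of 0.65 (adjusted p = 0.0515). It passed in 6 of 25 alternatives, with a lowest adjusted p of 0.012, and was -0.13 without WSD+C 4 (adjusted p = 0.90). When both WSD+C 4 and WSD+T 6 were left out, the adjusted p was 0.299 for NRP2 and 0.79 for THBS1. The endothelium list was low throughout, with 10 of 11 genes in the table and a sum of 27.4 to 45.6 CPM in Chow+C and 18.5 to 30.5 CPM in Chow+T. On the Western-style diet the sum was 33.7 to 134 CPM with cholesterol and 24.2 to 152.9 CPM with testosterone. Of the endothelium list, PECAM1, VWF, ESAM, EGFL7 and PLVAP were read in every library. Their medians were 1.23, 7.32, 0.18, 21.88 and 1.87 CPM. CLDN5 was at 0 in all 19 libraries, EMCN in 16, ROBO4 in 12, CDH5 in 7 and ERG in 2. RAC2 of the leukocyte list was also at 0 in all 19, so a gene at 0 does not by itself show that cells were absent. The endothelium score rests on the 6 list genes that passed the filter. The leukocyte and endothelium scores ran together over the 19 libraries (Spearman rho 0.75), and PECAM1 is also made by leukocytes, so the 2 slopes are not separate measurements.

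VEGFA is a known target of the hypoxia response, so its level was also fitted on the mean log2 CPM of the 14 genes tested of the hypoxia list, with the treatment group as a term. This slope was added after seeing the data. VEGFA had a slope of 1.30 per unit (SE 1.38, 95% interval -1.61 to 4.21, adjusted p = 0.56 by edgeR), and NRP1 of 1.82 (SE 1.001, adjusted p = 0.24). Of the 9 members only THBS1 passed, against 9.09% of all genes, with a slope of -4.10 (SE 1.11, adjusted p = 0.033). That call was lost in 8 of 25 alternatives, among them the one without WSD+C 4, where the slope was -2.95 (adjusted p = 0.78) and no gene was called. The hypoxia score ran against the leukocyte score over the 19 libraries (Spearman rho -0.66). A list gene that makes up the score is part of the mean it was fitted on, so a positive slope is partly built in. Such genes that passed were LDHA at 2.35, NDRG1 at 2.26, BNIP3 at 2.12, EGLN1 at 1.40 and EGLN3 at -3.02. Outside the score, TIE1 passed at -7.80 and ITGB3 at -4.24.

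Of the receptors outside the 10 genes, KDR, the main signalling receptor for VEGFA, had 7.55, 1.23, 15.5 and 2.00 CPM in Chow+C 1 to 4, and 28.1, 2.07, 4.20 and 0.65 in Chow+T 1 to 4. WSD+C 1 to 5 had 31.4, 11.5, 0.80, 1.53 and 3.27, and WSD+T ran from 0.35 to 19.7 with a median of 7.13. KDR thus spanned a wide range in every group. The summed endothelium markers were 39.5 CPM in WSD+C 1, the library highest in KDR, and 18.5 CPM, the lowest of all, in Chow+T 1, the next in KDR. In WSD+T 6 and WSD+C 4, highest in these markers, KDR was 5.61 and 1.53 CPM. The KDR slope was -0.89 on the endothelium score (SE 0.448, adjusted p = 0.166 by edgeR) and -0.43 on the leukocyte score (SE 0.169, adjusted p = 0.088), and neither passed. FLT4, the receptor for VEGFC, lay between 0.43 and 6.53 CPM with overlapping groups.

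TEK, the angiopoietin receptor, and its relative TIE1 were nearly absent in most libraries. TEK had a median of 0.23 CPM and reached 1.79 in WSD+C 4 and 1.45 in WSD+T 6. TIE1 had a median of 0.17 CPM and reached 12.1 in WSD+C 4 and 8.28 in WSD+T 6. Both rose with the leukocyte score, TEK by 0.35 (adjusted p = 0.030) and TIE1 by 0.96 per unit (adjusted p = 3.47e-07 by edgeR). With those 2 libraries left out TEK was at 0.066 (adjusted p = 1) and TIE1 at 0.84 (adjusted p = 0.017). On the endothelium score both passed as well, TEK at 0.73 (adjusted p = 0.0495) and TIE1 at 2.21 per unit (adjusted p = 1.07e-05 by edgeR). Without the 2 libraries, the endothelium slopes were 0.17 for TEK (adjusted p = 0.999) and 2.02 for TIE1 (adjusted p = 0.14). TIE1 was fitted 4.92 higher on the log2 scale with degenerating than with MI oocytes (SE 1.46, adjusted p = 0.169 by edgeR, 4.6e-04 by DESeq2, 0.030 by edgeR without the treatment group term), and -0.77 when fitted together with the leukocyte score. Its diet main effect was 2.95 (SE 1.25, adjusted p = 0.70), and -0.31 without the 2 libraries.

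**Figure D5:**
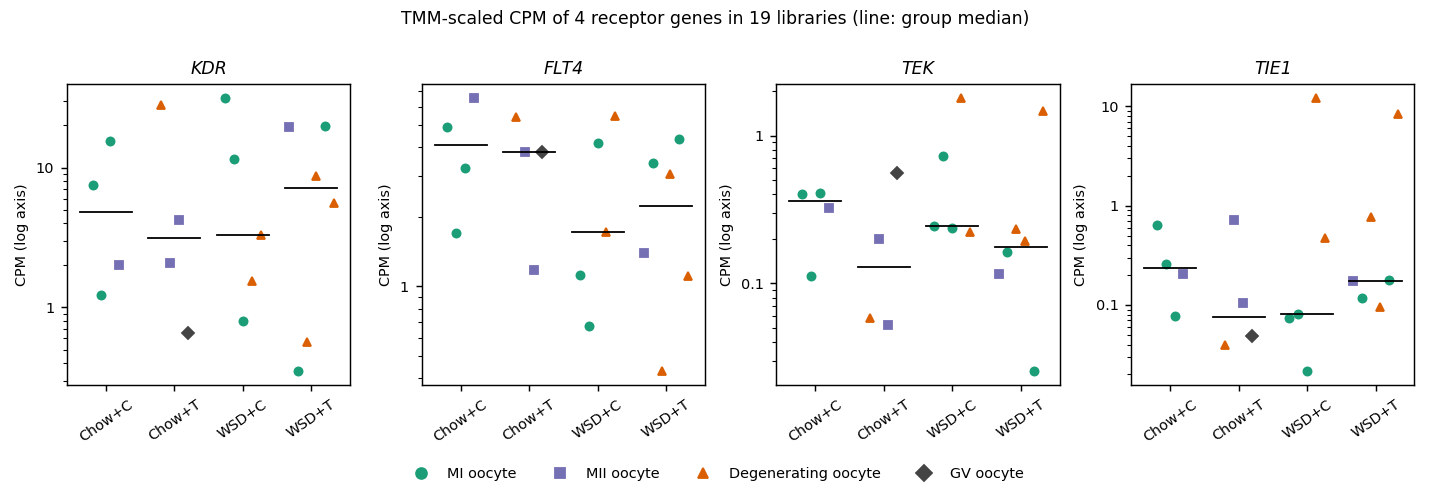
KDR, FLT4, TEK and TIE1 as TMM-scaled CPM on a log axis by treatment group, with 1 point per library, symbols for the oocyte class and a line at the group median. KDR is spread over every group, from 0.35 to 31.4 CPM, whereas TEK and TIE1 are highest in WSD+C 4 and WSD+T 6.

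Of the 4 lists of related genes, none had a gene past the threshold in any of the 11 comparisons of treatments and oocyte classes. These were 13 tested receptors and partners, 14 genes of hypoxia sensing and response, 15 other angiogenic factors and inhibitors, and 10 genes of the thrombospondin family and its receptors. The list of receptors and partners had median log2 differences from -0.45 (interaction) to 0.32 (diet without testosterone), where the medians of all genes were 0.01 and 0.02. The hypoxia list, which holds HIF1A, the oxygen-sensitive transcription factor, and its targets, ran from -0.34 (MII against MI) to 0.13. The other angiogenic factors ran from -0.27 to 0.27 and the thrombospondin list from -0.21 to 0.19.

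On the leukocyte score, 5 of these 52 list genes tested rose and 9 fell. The share called was 26.9%, against 18.1% of all genes, of which 1719 rose and 1001 fell. HGF, a growth factor that also promotes vessel growth, rose by 0.90 per unit (adjusted p = 1.9e-04 by edgeR), and PDGFB, which recruits pericytes, by 0.43. EGLN3, an oxygen-sensing hydroxylase, rose by 0.28. ANGPTL4 fell by 0.63 per unit, the glucose transporter SLC2A1 fell by 0.27, and PLXNA1, a semaphorin receptor that pairs with NRP1, fell by 0.23. LDHA fell by 0.20, SEMA3C by 0.20, CALR by 0.18, BNIP3, HIF1A and PDGFA each by 0.17. When WSD+C 4 was left out, only HGF and TIE1 of these 14 passed, and when WSD+T 6 was left out too, only TIE1. The slopes of EGLN3 and PDGFB were then -0.017 and -0.26.

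On the endothelium score, 7 of the 52 genes rose and 9 fell. The share called was 30.8%, against 21.7% of all genes, of which 1911 rose and 1351 fell. The list members that passed here and not on the leukocyte score were ITGB3 at 0.86 and COMP at 0.77, and, lower with the score, EFNA1 at -0.74, PDK1 at -0.59 and ITGAV at -0.41. When WSD+C 4 and WSD+T 6 were left out, none of the 16 passed by edgeR, and 13 of the fitted slopes had the same sign.

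Among the members themselves, levels over the 19 libraries ran most closely together for PGF and NRP1 (Spearman rho 0.70, Pearson r 0.74) and for NRP2 and THBS1 (rho 0.59, r 0.75). VEGFA and NRP1 had a rho of 0.58, and PGF and ANGPT2 the lowest, -0.37. Over the 17 libraries other than WSD+C 4 and WSD+T 6, the order was another. VEGFA and THBS1 (rho 0.70) and PGF and ANGPT1 (0.69) then ran most closely together, against 0.47 and 0.52 over all 19. PGF and NRP1 had a rho of 0.63, NRP2 and THBS1 of 0.43, and VEGFA and NRP1 of 0.42. The lowest was VEGFA and VEGFB at -0.40, with PGF and ANGPT2 at -0.28. These are descriptions over libraries that share treatment groups and cell makeup.

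The genes whose levels ranked most like a member's were taken from 11162 genes with a symbol, 2 per member, over the same 19 libraries. For NRP2 they were CSF1R, the receptor that macrophages need and a gene of the macrophage marker list (rho 0.87), and IER5L (0.86). For THBS1 they were DOK3, an adaptor protein of immune cells (0.92), and MED15 (0.81). VEGFA was closest to ABHD16A (0.93) and RIC8A (0.90), and NRP1 to FBLIM1 and TMEM164 (both 0.91). ANGPT1 was closest to EPSTI1 (0.88) and MAP2K5 (0.83), and ANGPT2 to SYNE1 and TMED6 (both 0.68).

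PGF was closest to KCTD9 and EIF2B2 (both 0.93). In RefSeq's T2T-MMU8v2.0 annotation, PGF and EIF2B2 lie on the same chromosome, 42.8 kb apart, with 0 annotated genes between them, and do not overlap. The libraries carry no strand, and whether reads of one were counted for the other was not tested. VEGFB was closest to ADCK2 (0.79) and FAM176B (0.77), and VEGFC to NAGLU (0.74) and N4BP2L2 (0.70). Over the 17 libraries other than WSD+C 4 and WSD+T 6, the rho was 0.82 for NRP2 and CSF1R, 0.89 for THBS1 and DOK3, 0.91 for VEGFA and ABHD16A and 0.93 for PGF and EIF2B2.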

How the data were processed

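RNA was sequenced in 19 libraries. The deposited table holds raw counts per gene for 32386 genes under Ensembl macaque identifiers. Its 4 rows for reads outside genes (unmapped 1.46% to 3.92%, multimapping 7.03% to 18.3%, no feature 18.3% to 33.5%, ambiguous 1.62% to 2.25% of all reads) were left out. Per the submitters' processing notes, Trimmomatic and STAR were used. The sources used here give neither their versions nor a genome build or annotation. In R 4.3.3, edgeR 4.0.16 kept genes by filterByExpr (minimum count 10, minimum total 15), scaled libraries by TMM and ran robust two-sided quasi-likelihood tests, with p-values adjusted by Benjamini and Hochberg's method across every gene tested, and 0.05 as threshold. One fit of 4 treatment groups (15019 genes) gave 8 comparisons, and a fit of 18 libraries with the group as a term (14976 genes) gave 3 of oocyte classes. Slopes on marker scores (mean log2 CPM, prior count 1) had the group as a term, and the hypoxia slope was added after seeing the data.

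The members, lists and tests were chosen with earlier results of these data known. The genes named are all 10 members, KDR, FLT4, TEK and TIE1, list genes past the threshold in any comparison, and the 2 genes of mean log2 CPM of at least 0 that rank most like each member. Of 143 list genes, 131 were found by symbol. Alternatives were DESeq2 1.42.0 size factors and tests, limma 3.58.1 (voom), no filter, leaving out libraries, marker scores or oocyte class as terms, and subsets by oocyte class or diet. The leukocyte score as a term in the oocyte comparisons and the fits without Chow+C 2 and WSD+T 3 were chosen after seeing the data. Limits from counts, as given for FLT1, cover counting error only. The confidence intervals of fitted differences and slopes rest on edgeR's standard errors, which include the spread between libraries. No sequences or coordinates are given. The tests were checked on simulated data with a smaller spread between libraries than in these data, so that check does not cover spread of this size.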

Additional observations from a re-analysis of the deposited data

Results flagged for a closer look

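Within groups and oocyte classes of 4 to 8 libraries, 63 sets of member values were searched for a highest or lowest library far from the others, and 7 stood out. Chance gives about 1 set in 20 for normally spread values in separate sets. These sets are not separate, since libraries enter both by group and by oocyte class, so the 7 are not a test against chance. VEGFA in Chow+C 2, at 1246 CPM, was far above the other libraries with an MI oocyte. VEGFC in WSD+C 5, at 33.7 CPM, was far above the rest of WSD+C. NRP1 in WSD+C 4, at 47.1 CPM, was far below both the rest of WSD+C and the other libraries with a degenerating oocyte. NRP1 in WSD+T 1, at 321 CPM, was far below the other libraries with an MII oocyte. NRP2 in Chow+T 2, at 8.87 CPM, was far above the rest of Chow+T, in a library with 157.9 CPM of macrophage markers against 15.8 to 19.1 in the other 3. THBS1 in Chow+C 1, at 19.6 CPM, was far below the rest of the control group.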

How the results depend on the processing

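Over the 11 comparisons of treatments and oocyte classes, 99 member values were recomputed 2790 times, of which 4 passed the threshold. A further 145 moved by 1 SE or more, not counting those that turned. The 4 were NRP2 and THBS1 for degenerating against MI, by DESeq2 and without the treatment group term. A value that turned had an unadjusted p under 0.05 in the main edgeR fit and changed sign in an alternative. Sign changes of other values are not listed. Those that turned were NRP2 for the diet main effect (-0.45 with the endothelium score as a covariate, -1.03 in MI and MII libraries) and for testosterone plus diet (-0.043 in MI and MII libraries), NRP2 and THBS1 for degenerating against MI (-2.08 and -0.020 with the leukocyte score added), ANGPT1 for MII against MI (-1.004 in Western-style diet libraries) and ANGPT2 on the leukocyte score (-0.042 to 0.30 leaving out 1 library, -0.036 without WSD+C 4 and WSD+T 6) and on the endothelium score (-0.13 to 0.83, and -0.20). TIE1 turned for the diet main effect (-0.31 without WSD+C 4 and WSD+T 6, -0.17 with the leukocyte and -0.55 with the endothelium score, -0.46 with oocyte class as a term, -1.85 in MI and MII libraries) and for degenerating against MI (-0.77 with the leukocyte score). Without WSD+C 4 and WSD+T 6, the slopes of EGLN3 (-0.017 and -0.087), PDGFB (-0.26 and -0.46) on the leukocyte and endothelium scores and of EFNA1 (0.030) on the endothelium score turned. The causes were not tested.

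Counts of genes called by DESeq2 were 6 for testosterone on chow, 2 for testosterone plus diet, 2 for diet under testosterone, 4 and 5 for the testosterone and diet main effects, 3 for the interaction, 9 for MII against MI, 1001 for degenerating against MI, 27 for degenerating against MII, and 4364, 4935 and 2176 for the slopes on the leukocyte, endothelium and hypoxia scores. In MI and MII libraries 4 genes were called for testosterone on chow and 1 for diet under testosterone. Degenerating against MI gave 574 without the group term and 0 to 226 leaving out 1 library, 226 being without Chow+T 1. Degenerating against MII gave 6 with the leukocyte score added and 0 to 1 leaving out 1 library, and the diet main effect 0 to 1. Leaving out 1 library, the slopes gave 649 to 3922 (leukocyte), 619 to 4536 (endothelium) and 0 to 2336 (hypoxia) genes, and without WSD+C 4 and WSD+T 6 they gave 261, 46 and 0. The hypoxia slope gave 3037 without the filter, 2221 by limma and 2244 without Chow+C 2 and WSD+T 3. No paired analysis was run, since each library belongs to 1 treatment group and the labels name no pairs across groups. The replicate numbers used here only name the libraries within a group. Members at low counts, FLT1 above all, are limited by depth, and the others by the spread between libraries, a biological coefficient of variation of 0.583.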

Other observations

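Chow+T 4, the 1 library with a GV oocyte, is in no comparison of oocyte classes. It was highest of the 19 in VEGFB (60.4 CPM) and had 102 CPM of VEGFA, 17.2 of THBS1 and 0.65 of KDR, with the highest sum of granulosa markers (14965 CPM).

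KDR and FLT4, taken outside the rule on like genes after their values were seen, ranked most like STRIP2 (Spearman rho 0.74) and KCTD8 (0.73), and GIT1 (0.75) and TRIM28 (0.74), over the 19 libraries.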
